A study of Mus musculus with 6 samples.

Results

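Resting CD8 T cells are cytotoxic-lineage T lymphocytes that carry little of the granzyme and chemokine message of activated killer cells. They were defined here by a gate on counted transcripts: at least 2 unique molecular identifiers (UMIs, each standing for 1 captured mRNA molecule) of Cd3e, Cd3d and Cd3g together, at least 2 of Cd8a and Cd8b1 together, and at most 1 of Ccl5, Gzmk and Gzmb together. No UMI of Cd4 or Cd79a and fewer than 10 of C1qa, C1qb and C1qc together were allowed. Among the 26843 cells that had at least 200 genes and at most 15% mitochondrial UMIs, 1168 cells (4.35%) met this gate. The library labelled MRX held 271 of them, CTX 241, Combined 118, ctxd18t 181 and combod18t 357. The genes of the gate, the labelled markers Cd8b1, Dapl1, Lef1 and Sidt1, and every contrast with cells left out by the gate were fixed by this choice, so those values are descriptions without a test.

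The study measured CD45+ immune cells sorted from mouse mammary tumours by single-cell RNA sequencing, and its title names inhibition of the receptor tyrosine kinase MERTK and the alkylating agent cyclophosphamide in triple negative breast cancer. The labels give 6 samples, 1 per group: VC, MRX, CTX and Combined, and ctxd18t and combod18t, whose labels name day 18. The labels do not spell the group names out, and their shared protocol places treatment at 3 hours before harvest for mice taken at day 7. Strain, age, tumour line, dose and the number of animals behind a library were not given in the sources used here. Of the VC sample, 3656 barcodes were read and its counts were not analysed here. Each group has 1 library, so there is no test between groups and no measure of the spread between animals: the intervals below are 95% intervals that cover counting error only.

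Naive CD8 T cells leave the thymus, recirculate through blood, lymph and lymph nodes, and stay out of the cell cycle until an antigen receptor and costimulation activate them. The transcription factors TCF1 and LEF1, encoded by Tcf7 and Lef1, and the repressor BACH2 keep their undifferentiated state, while IL-7 signals sustain their survival. CCR7 guides them into lymph nodes and S1PR1 lets them leave. After activation these receptors are lost and perforin, granzymes, chemokines and tissue chemokine receptors are made.

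The 5 libraries held 39820290 to 100733879 UMIs, and the resting cells had median depths of 5582, 5050, 5783.5, 8914 and 8309 UMIs in MRX, CTX, Combined, ctxd18t and combod18t. Values below keep that order of libraries. Cell barcodes were compared between libraries: Combined and ctxd18t had 21 in common, 1 of them in a resting CD8 T cell of both, and CTX and combod18t had 34 in common, none of them in a resting cell of both. All other pairs of libraries, VC included, had 0. The library labelled ctxd18t thus overlapped Combined and the library labelled combod18t overlapped CTX, while the labels' protocol gives the Combination and CTX samples barcode sets of their own. Whether the labels of both day 18 libraries are exchanged was not tested. Directions at day 18 are those of the labels as deposited, and every one of them would turn if the labels were exchanged. With these barcodes left out of both libraries, the resting share of kept cells was 4.40 percentage points higher in combod18t than in ctxd18t (4.37 with them) and 173 genes passed the threshold used below (196 with them).

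Some barcodes that met the gate also carried myeloid transcripts. In 73 of the 1168 cells (6.25%, exact interval 4.93% to 7.79%) over 1% of UMIs fell in the macrophage, monocyte and neutrophil marker lists, and these cells are called mixed barcodes here. They made up 32 of 241 cells in CTX (13.3%) and 14 of 118 in Combined (11.9%), against 6 of 271 in MRX, 9 of 181 in ctxd18t and 12 of 357 in combod18t. Because they were deep, with medians of 13620 to 23049 UMIs, they held 28.2% of the resting cells' UMIs in CTX and 26.6% in Combined. Values that move with them are given without them as well, a choice made after seeing the data. Cells under the 1% limit held myeloid message too: with no C1q UMI allowed, 225, 157, 77, 160 and 320 resting cells were left. Values without the mixed barcodes can therefore still hold some of it.

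Of the labelled markers, Lef1 and Sidt1 were found in most of the gated cells and Dapl1 in a minority. Lef1, the TCF-family transcription factor, had a UMI in 85.2%, 82.6%, 82.2%, 74.6% and 84.9% of the resting cells. Sidt1, which encodes a transmembrane protein of the SID1 family, had one in 77.1%, 76.8%, 84.7%, 81.8% and 84.6%. Dapl1, a small protein gene found in naive T cells, had one in only 32.5%, 36.1%, 35.6%, 39.8% and 35.0%. B cells (at least 2 UMIs of Cd79a and none of Cd3, median depths of 4146.5 to 8313 UMIs) were set beside them. They had a Lef1 UMI in 1.15% to 2.98% and a Dapl1 UMI in at most 0.136% of cells. A Sidt1 UMI was seen in 10.2% to 17.5% of B cells, so they are no blank for Sidt1.

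Depth differed between libraries, so each cell was also thinned to 2000 UMIs. Thinned, Lef1 had a UMI in 64.6% to 77.3% of resting cells, 19.5% to 32.1% of effector-gated CD8 T cells (the same gate, with at least 2 UMIs of Ccl5, Gzmk and Gzmb) and 0.493% to 1.31% of B cells. The lymph-node receptor gene Ccr7 gave the same order, with a UMI in 51.4% to 68.6% of resting against 8.67% to 18.6% of effector-gated cells. Il7r, the IL-7 receptor alpha chain, was at 55.2% to 82.1% against 20.4% to 35.8%, and S1pr1 at 28.7% to 40.1% against 6.74% to 12.3%.

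**Figure D1:**
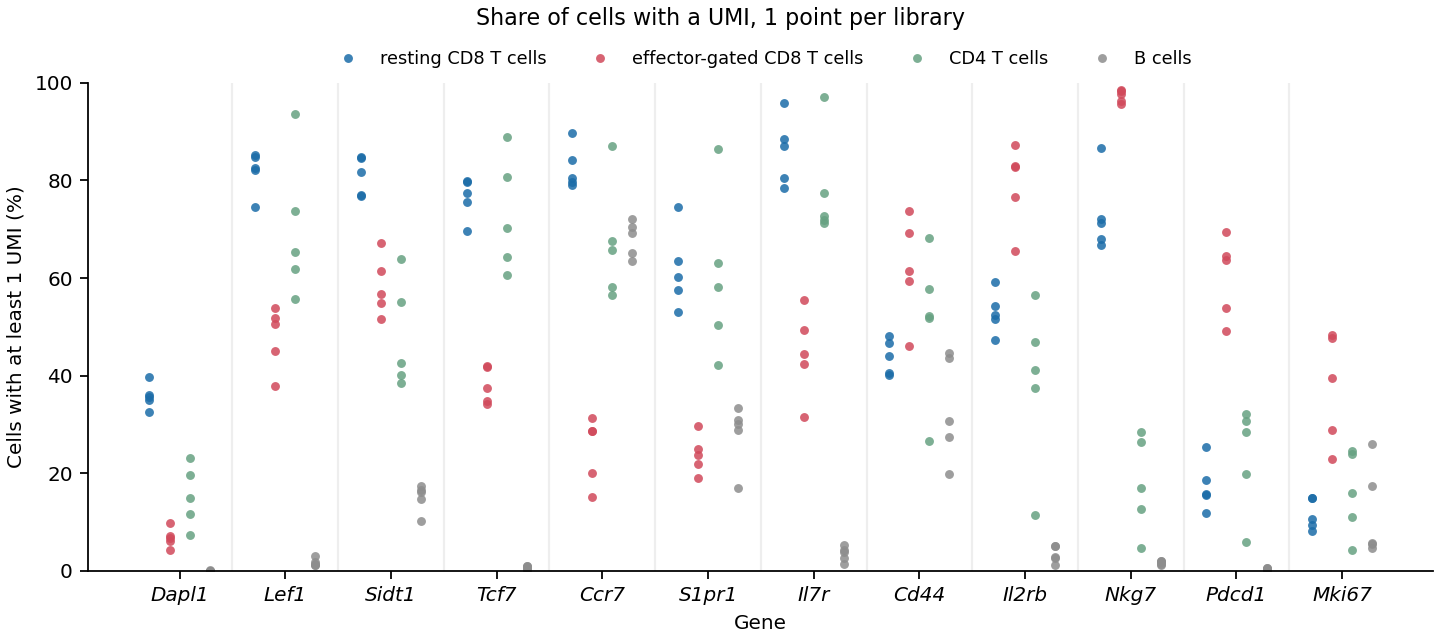
Percentage of cells with at least 1 UMI of each of 12 genes (y axis, percent of cells), with 1 point per library for resting CD8 T cells, effector-gated CD8 T cells, CD4 T cells and B cells, before thinning. Lef1 lies at 74.6% to 85.2% in resting cells, while Nkg7, a cytotoxic granule gene that the gate did not use, is still found in 66.8% to 86.7% of them.

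The word resting describes the gate more closely than every cell in it. Nkg7, a membrane protein of cytotoxic granules, had a UMI in 66.8%, 72.2%, 71.2%, 86.7% and 68.1% of the resting cells and in 95.7% to 98.6% of effector-gated cells, against 1.28% to 2.03% of B cells. Cd44, an adhesion receptor raised on antigen-experienced T cells, was seen in 40.1% to 48.1% of resting cells, and Il2rb, the IL-2 and IL-15 receptor beta chain, in 47.3% to 59.1%. Mki67, the proliferation marker, was seen in 8.12% to 14.9%. At least 5 UMIs over 6 cell cycle genes (Mki67, Top2a, Birc5, Ccnb1, Cdk1 and Pclaf) were held by 22 cells of MRX (8.12%), 25 of CTX (10.4%) and 6 of Combined (5.08%). Day 18 had 19 such cells (10.5%) in ctxd18t and 14 (3.92%) in combod18t. Cells in cycle and cells with cytotoxic message are thus among the members.

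Markers of other lineages were seen at levels that differed between the lists. The regulatory T cell factor Foxp3 had a UMI in 0.738% to 1.96% of resting cells, the NK receptor Ncr1 in 0% to 0.847% and the gamma-delta receptor gene Trdc in 0.847% to 3.36%. The thymocyte recombinase genes Rag1 and Rag2 were at 0 in all 5 libraries. Summed over its genes, the list of 12 macrophage and monocyte markers reached 1382 to 7463 counts scaled to a library total of 1000000 (CPM), against 8369 to 13900 CPM in B cells of the same libraries. The B and plasma cell list gave 418 to 2465 CPM in resting cells and 21590 to 29901 CPM in B cells. The dendritic cell list gave 1226 to 4359 CPM, against 7293 to 11646 CPM in B cells, and the NK list 263 to 1186 CPM, against 359 to 1193 CPM. B cells are no blank for the macrophage and dendritic lists. Cd74 is in both the macrophage and the B and plasma list, and the dendritic list holds H2-Aa and H2-Ab1, which B cells make. A level under that of B cells therefore sets no bound on myeloid or dendritic message in the resting cells. The highest resting library lay above the B cell range for the neutrophil list, at 125 to 3245 CPM against 340 to 629 CPM, and for the epithelial list, at 9.32 to 111 CPM against 11.3 to 23.6 CPM. The CD4 and regulatory T list was above it in each library, at 511 to 918 CPM against 145 to 231 CPM.

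At the edge of the gate the Lef1 level was highest in cells with no cytotoxic UMI in each library, and the steps beyond were uneven. Cells with 0 and with 1 UMI of Ccl5, Gzmk and Gzmb had Lef1 at 985 and 758 CPM in MRX, and the cells just outside, with 2 and with 3 UMIs, at 652 and 698 CPM. In combod18t the same steps were 1331 and 987 CPM inside and 779 and 617 CPM outside, and in ctxd18t 944 and 501 CPM inside and 414 and 335 CPM outside. In CTX they were 702 and 463 CPM inside against 196 and 510 CPM outside, and in Combined 821 and 360 CPM against 451 and 115 CPM. The outer steps rest on 3 to 34 cells each.

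Resting CD8 T cells were most frequent in the library labelled combod18t. Their share of kept cells there was 8.89% (exact interval 8.02% to 9.81%), against 4.51% (3.89% to 5.2%) in ctxd18t. MRX had 4.98% (4.42% to 5.59%), CTX 2.71% (2.38% to 3.07%) and Combined 2.64% (2.19% to 3.15%). At day 18 the share was 4.37 percentage points higher in combod18t than in ctxd18t (interval 3.29 to 5.47). Combined and CTX differed by -0.0722 points (-0.632 to 0.530), within counting error. CTX minus MRX was -2.27 points (-2.96 to -1.62) and Combined minus MRX -2.35 points (-3.09 to -1.60), and both differences share the MRX library.

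The day 18 excess had a different size against each denominator. Of all gated CD8 T cells, resting cells made up 53.7% (49.8% to 57.5%) in combod18t and 29.6% (26.0% to 33.4%) in ctxd18t. MRX, CTX and Combined lay near the latter, at 28.0% (25.2% to 31.0%), 31.1% (27.8% to 34.4%) and 34.6% (29.6% to 39.9%). The difference at day 18 was 24.1 points (18.7 to 29.2), and between Combined and CTX 3.55 points (-2.34 to 9.63). Of all cells with at least 2 Cd3 UMIs, however, they were 10.8% in ctxd18t and 12.1% in combod18t, a difference of 1.33 points whose interval (-0.606 to 3.19) holds 0. T cells as a whole were more frequent in combod18t: 73.3% of kept cells had at least 2 Cd3 UMIs, against 41.8% in ctxd18t, and CD4 T cells gated the same way were 28.5% against 7.38%.

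The shares also moved with depth, since the gate counts UMIs. After thinning to 2000 UMIs 3.49% of cells in ctxd18t and 3.91% in combod18t met the gate, a difference of 0.417 points (-0.431 to 1.27). Among gated CD8 T cells the thinned difference was 15.9 points (8.14 to 23.5), with 37.8% in ctxd18t and 53.7% in combod18t. Combined minus CTX turned to -7.00 points (-15.8 to 2.15) of gated CD8 T cells. CTX minus MRX was then -1.08 points (-1.64 to -0.551) of kept cells, and of gated CD8 T cells it went from 3.03 points (-1.26 to 7.35) to 15.3 points (8.83 to 21.7). Combined minus MRX was -1.55 points (-2.13 to -0.963) of kept cells, and went from 6.58 (0.920 to 12.5) to 8.33 points (0.101 to 16.9) of gated CD8 T cells. Both differences among gated CD8 T cells moved with the gate as well. With no cytotoxic UMI allowed, Combined minus MRX was 1.42 points (-3.74 to 6.94) and CTX minus MRX -0.384 points (-4.38 to 3.67), both intervals holding 0. With up to 3 allowed, CTX minus MRX was 7.17 points (2.66 to 11.7). The receptor genes of the gate themselves differed between both day 18 libraries in the resting cells, Cd8a at 357 CPM in ctxd18t and 251 CPM in combod18t and Cd8b1 at 558 and 423 CPM. The part of these levels in the thinned shares was not tested.

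**Figure D2:**
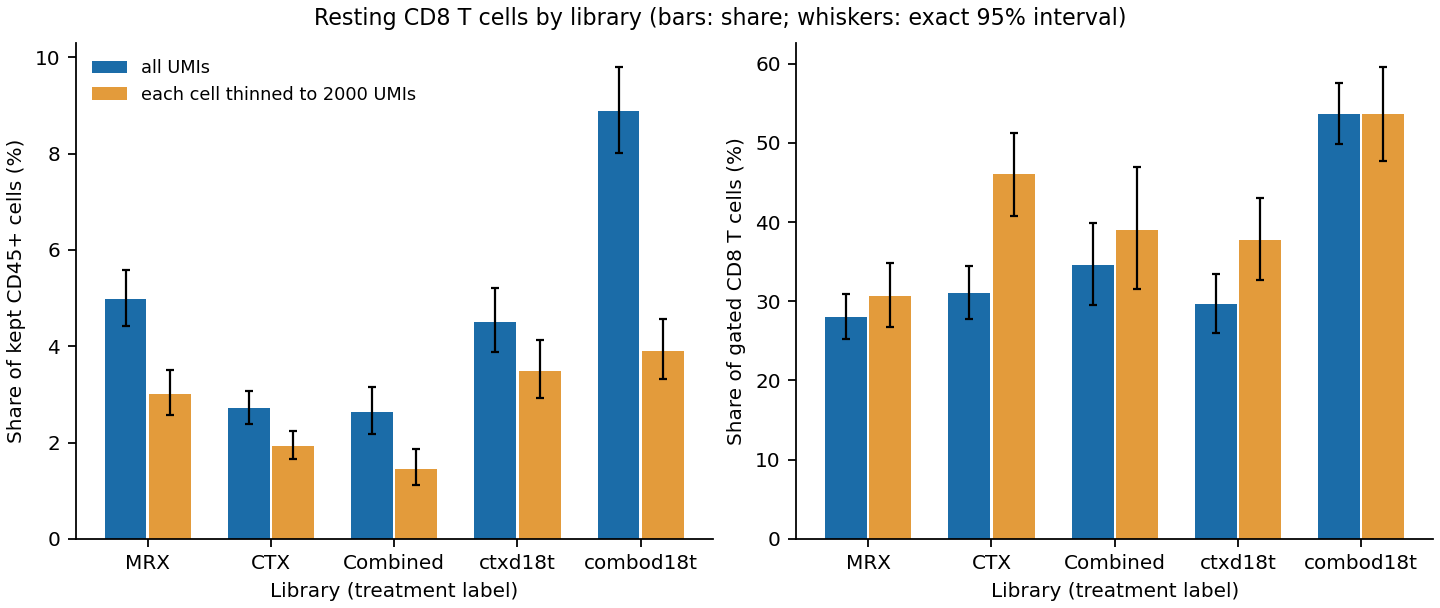
Share of resting CD8 T cells among kept cells and among gated CD8 T cells (y axes, percent) in the 5 libraries, as bars from 0 with exact 95% intervals, for all UMIs and after thinning each cell to 2000 UMIs. Combod18t is highest on both denominators with all UMIs (8.89% and 53.7%), and after thinning it stays at 53.7% of gated CD8 T cells but is 3.91% of kept cells beside 3.49% in ctxd18t.

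Set beside effector-gated CD8 T cells of the same library, the resting cells had more message of naive-type genes that the gate did not name. Over the 5 libraries the highest median log2 ratios of CPM were those of Igfbp4, an insulin-like growth factor binding protein, at 3.10 (2.77 to 3.89), and Dapl1 at 2.96 (2.34 to 3.18), with the range over libraries in brackets. Next came Auts2, a neurodevelopmental regulator of transcription, at 2.72 (1.96 to 3.64), and Rapgef4, a cAMP-activated exchange factor, at 2.69 (2.60 to 2.90). Tnfrsf19, a TNF receptor family member, stood at 2.68 (2.06 to 3.44), Patj, a cell polarity scaffold, at 2.63 (2.19 to 2.77), and Gria3, a glutamate receptor subunit, at 2.57 (0.40 to 4.28). Crabp2, a retinoic acid binding protein, had a median of 2.57 (-0.64 to 4.84), positive in 3 of 5 libraries, where it was seen in 2 or 3 cells each. Lef1 stood at 2.07 (1.80 to 2.32), Ccr7 at 2.24 (1.71 to 2.88) and Sidt1 at 1.29 (0.90 to 1.58). Of 10398 genes compared, 82 (0.789%) were at least 2-fold higher in all 5 libraries, among them 7 of the 20 naive and quiescence regulators and 6 of the 16 homing and survival receptors.

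The genes lowest in resting against effector-gated cells included cytotoxic genes. Gzma, a granzyme outside the gate, had a median log2 ratio of -5.67 (-6.04 to -3.77), and the lectin-like receptor Klrg1, a marker of terminal effectors, -3.27 (-3.89 to -1.23). The NK receptor Ncr1 stood at -3.18 (-3.29 to -2.35) and the receptor tyrosine kinase gene Ret at -3.07 (-4.59 to -0.90). Esm1, a secreted proteoglycan, was at -4.21 (-4.81 to -3.47), Ppp2r2c, a phosphatase subunit, at -3.78 (-4.79 to -3.29), Heatr9 at -3.18 (-3.44 to -1.55) and the adaptor Clnk at -2.84 (-3.03 to -0.43). In all 5 libraries 83 genes (0.798%) were at least 2-fold lower, and 5 of 30 memory and effector genes and 8 of 25 cell cycle genes were among them. Ribosomal protein genes took a median of 26.4%, 25.1%, 22.2%, 19.2% and 17.1% of UMIs per resting cell, against 17.3%, 16.5%, 14.7%, 11.5% and 9.96% in effector-gated cells, so they were the larger fraction in every library.

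Against CD4 T cells (at least 1 Cd4 UMI, none of Cd8a, Cd8b1 or Foxp3, and the same other limits), 0 of 20 naive and quiescence regulators differed by at least 2-fold in the same direction in all 5 libraries. Highest were Gm44174 at 6.21 (5.29 to 7.17), the noncoding RNA gene Ifngas1 at 4.41 (2.65 to 4.77), Bend4 at 3.89 (3.00 to 4.57) and Samd3 at 3.79 (2.10 to 4.72) on the median log2 scale. They were followed by the kallikrein Klk1 at 3.53 (-1.06 to 4.17), the sialic acid lectin Siglech at 3.46 (-1.13 to 5.22), the ubiquitin ligase Nedd4 at 3.38 (0.59 to 4.72) and Tmem108 at 3.35 (0.11 to 4.79). Klk1 and Siglech rested on 1 to 5 cells a library. Lowest were the helper ligand Cd40lg at -6.23 (-6.71 to -4.01), the BMP antagonist Sostdc1 at -5.39 (-6.54 to -1.81) and the sialyltransferase St8sia6 at -4.43 (-6.04 to -3.09). The cytokines Il17f and Il10 stood at -4.22 (-4.63 to -2.43) and -3.83 (-4.02 to -1.73), and Esm1, the fibrillin Fbn2 and Nav2 at -4.21 (-4.31 to -2.60), -4.12 (-6.19 to -3.21) and -4.01 (-4.28 to -1.77). Of 10068 genes, 37 (0.368%) were at least 2-fold higher and 52 (0.516%) at least 2-fold lower in all 5 libraries. Sidt1 stood at 2.01 (1.69 to 2.32) and Dapl1 at 1.68 (0.58 to 2.50), whereas Lef1 was at 0.40 (-0.64 to 0.82), higher in 3 libraries and lower in 2. Of the memory and effector genes, 7 of 29 were at least 2-fold higher in the resting CD8 T cells of all 5.

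Among themselves the resting cells ranged from a homing-receptor state to a cycling, cytotoxic one. All members but 1, which held fewer UMIs than that, were thinned to 2000 UMIs and divided by whether they then held a Lef1 UMI, 821 with and 346 without. S1pr1 was found in 44.6% of the former and 13.0% of the latter, and Ccr7 in 71.1% and 41.0%. Each of these was the higher with Lef1 in 5 of 5 libraries, as were Sidt1 (74.8% and 32.1%) and Igfbp4 (18.6% and 6.07%). Cd44 went the other way in every library, 11.3% with Lef1 and 38.2% without, and Nkg7 in 4 of 5 libraries, 34.2% and 61.3%. The 67 cells that kept a Mki67 UMI had Lef1 in 20.9% and Nkg7 in 70.1%, against 73.4% and 40.5% of the 1100 others. These shares describe co-occurrence in sparse counts within the same cells.

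In both pairs of libraries that share no library, Combined against CTX and combod18t against ctxd18t, levels were compared as the log2 ratio of CPM after adding 1 CPM. A gene was counted as higher or lower when the ratio was at least 2-fold, the exact interval of the counts left out 0 and both libraries together held at least 100 counts. The interval is that of the ratio without the added 1. At day 18, 70 of 6390 genes (1.1%) were higher in combod18t and 126 (1.97%) lower. The median of all genes was at -0.01. Without the mixed barcodes 142 genes passed, 115 of them among the 196.

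Of the quiescence regulators 1, Bach2, passed the 2-fold threshold at day 18, and most of the others had smaller ratios above 0. Lef1 was at 946, 639, 654, 828 and 1266 CPM across MRX, CTX, Combined, ctxd18t and combod18t, with intervals of 787 to 869 CPM in ctxd18t and 1228 to 1304 CPM in combod18t. Its day 18 log2 ratio was 0.61 (0.53 to 0.70). Bach2, the repressor of effector differentiation, was at 884, 665, 769, 908 and 1827 CPM, and its ratio was 1.01 (0.93 to 1.09), just past 2-fold, and 0.96 without the mixed barcodes. Satb1, a chromatin organiser of T cell identity, was at 1445, 1096, 1405, 1649 and 2800.4 CPM, with a ratio of 0.76 (0.71 to 0.82). For all 3 genes combod18t was the highest library and CTX the lowest, for Lef1 within counting error of Combined. Tcf7, the partner of Lef1, did not follow them: it was at 317, 279, 303, 327 and 319.9 CPM, nearly level, with a day 18 ratio of -0.03 (-0.18 to 0.11), and Klf2, which controls trafficking genes, was at 569.9, 404, 474, 587 and 591 CPM, with a ratio of 0.01 (-0.10 to 0.12). Of 19 measured naive and quiescence regulators, 1 (Bach2) passed the 2-fold threshold upward, beside 1.1% of all genes, and 0 downward, and without the mixed barcodes 0 of 19 passed. The interval lay above 0 for 11 and below 0 for 1, beside 21.3% and 22.3% of all genes. The list's median was 0.30 (0.26 without the mixed barcodes and 0.20 in cells with no cell cycle UMI). In the latter cells 10 intervals lay above 0 and 6 below, beside 20.9% and 16.4%. In effector-gated cells the median was 0.29, with 13 of 19 above 0 and 1 below, beside 22.4% and 19.3%. In CD4 T cells it was 0.47, with 13 of 20 above 0 and 5 below, beside 23.6% and 28.9%.

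None of the survival and homing receptors reached 2-fold at day 18, and their ratios lay on both sides of 0. Il7r was at 766, 532, 566, 789 and 1371 CPM, with a day 18 ratio of 0.80 (0.71 to 0.88). S1pr1, the exit receptor, was at 238, 147, 164, 159 and 290.3 CPM, with a ratio of 0.86 (0.68 to 1.06), and Ccr7 at 734, 672, 583, 533 and 742 CPM, with 0.48 (0.37 to 0.58). For all 3 genes combod18t was the highest library. Gpr183, an oxysterol receptor that guides cells within lymphoid tissue, went the other way. It was at 347, 373, 306, 411 and 276 CPM, lowest in combod18t, with a ratio of -0.57 (-0.71 to -0.43). Of the 14 receptors measured, 0 passed the 2-fold threshold and the median was 0.30. The interval lay above 0 for 8, beside 21.3% of all genes, and below 0 for 2, beside 22.3%. In cells with no cell cycle UMI the median was 0.14, with 6 above 0 and 2 below, beside 20.9% and 16.4%. Effector-gated cells had a median of 0.20, with 9 of 15 above 0 and 1 below, beside 22.4% and 19.3%. CD4 T cells had 0.32, with 8 of 15 above 0 and 5 below, beside 23.6% and 28.9%. Among 18 genes of the insulin, IGF and PI3K pathway, the interval lay above 0 for 7 and below 0 for 3, beside 21.3% and 22.3% of all genes. Irs2, the insulin receptor substrate, passed upward, beside 1.1% of all genes. It was at 25.8, 19.4, 29.7, 32.9 and 75.3 CPM, with a ratio of 1.17 (0.79 to 1.62). In MRX 51.1% of the Irs2 count came from 1 cell, and the level without that cell was 12.9 CPM.

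**Figure D3:**
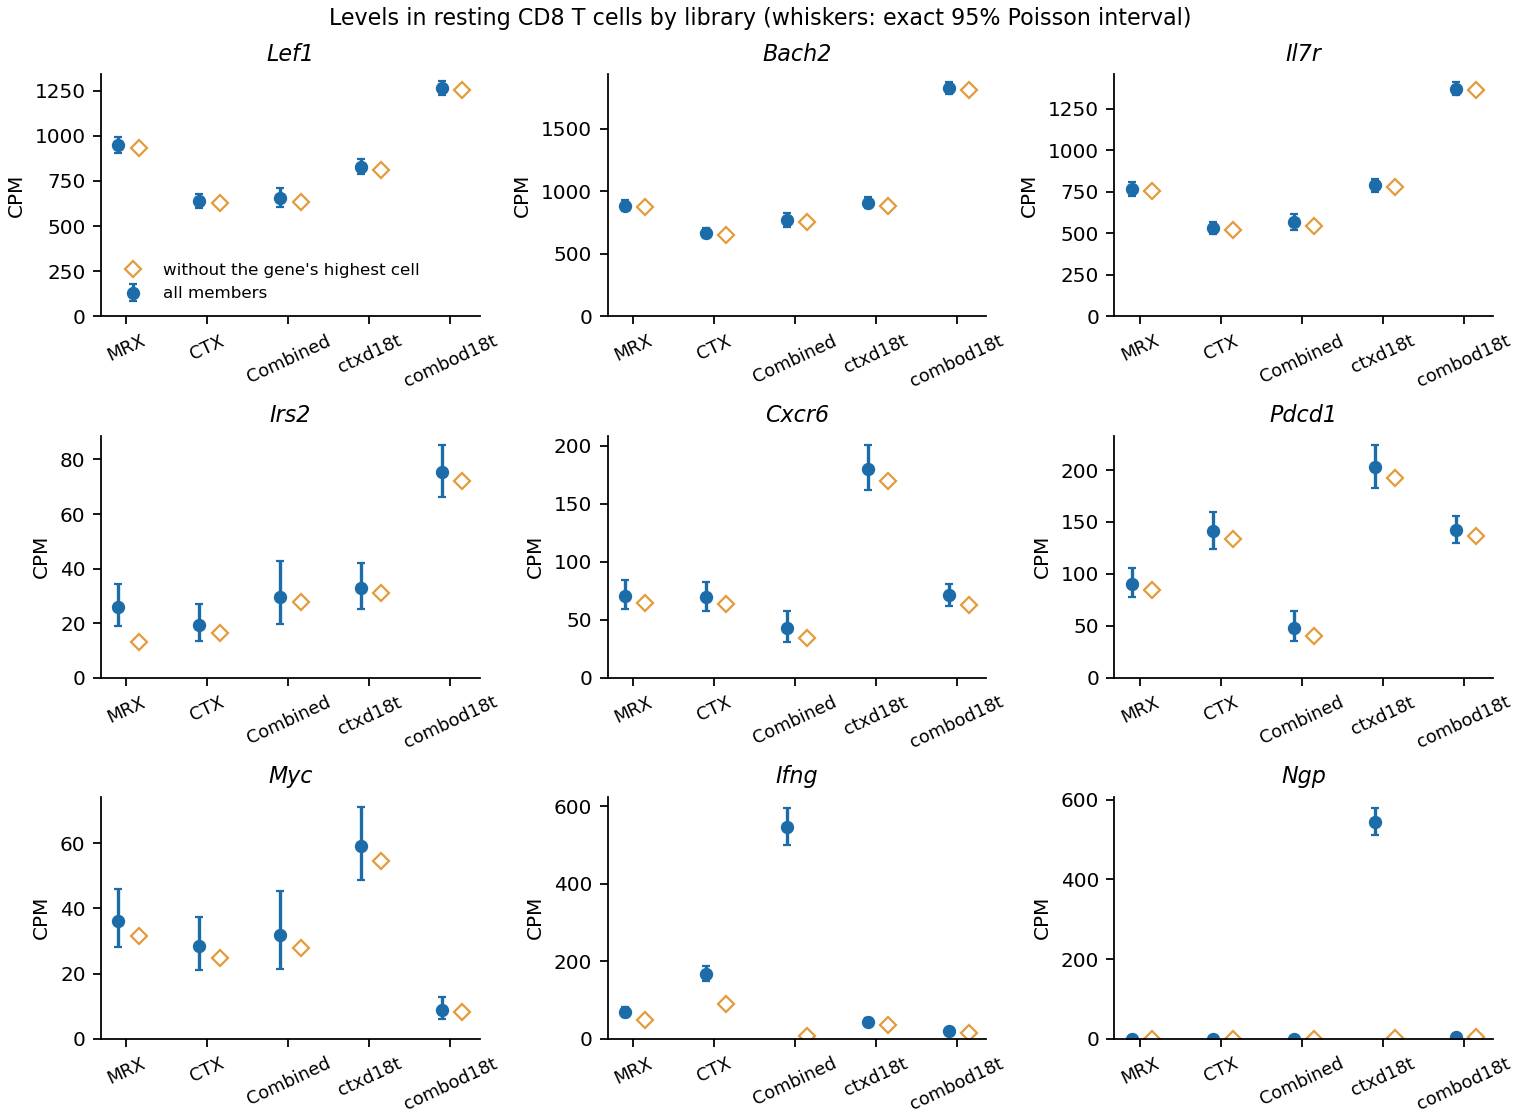
Levels of 9 genes in the resting CD8 T cells of the 5 libraries (y axes, CPM) with exact Poisson 95% intervals, and open diamonds for the level without the gene's highest cell. Lef1, Bach2 and Il7r are highest in combod18t, while the Ifng level of Combined and the Ngp level of ctxd18t drop to near 0 without 1 cell.

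By the bound of the interval nearest to 0, the 5 highest day 18 ratios were those of Bltp1, Acsl3, Acer2, Wnt5b and Serpini1. Bltp1, a bridge-like lipid transfer protein, was at 651, 348, 363, 536 and 1467 CPM, with a ratio of 1.45 (1.36 to 1.55). Acsl3, a long-chain acyl-CoA synthetase, was at 22.5, 23.9, 32.9, 13.6 and 55.0 CPM (1.94, interval 1.42 to 2.67), and Acer2, a ceramidase, at 15.9, 11.1, 14.8, 13.1 and 48.7 CPM (1.82, interval 1.29 to 2.57). These 3 genes were highest in combod18t. The Wnt ligand gene Wnt5b had a ratio of 1.78 (1.33 to 2.36) and the protease inhibitor gene Serpini1 1.60 (1.17 to 2.16). Of the 8 genes highest in resting against effector-gated cells, Patj had a day 18 ratio of 1.12 (0.90 to 1.35), Rapgef4 0.50 (0.23 to 0.78) and Gria3 1.09 (0.43 to 1.95). Igfbp4 went the other way with -0.90 (-1.16 to -0.66). Dapl1 had -0.13 (-0.39 to 0.13), Auts2 -0.14 (-0.36 to 0.08) and Tnfrsf19 -0.13 (-0.92 to 0.66), and Crabp2 had no count in either library. Without its highest cell in each library Auts2 stood at 0.51 (0.26 to 0.78), on the other side of 0, and without the mixed barcodes Gria3 stood at 1.68. After thinning each cell to 2000 UMIs, Acer2 stood at 0.71 and Wnt5b at 0.90. In effector-gated cells the day 18 ratio of Bltp1 was 0.73 (0.65 to 0.81) and of Acsl3 0.42 (0.08 to 0.79), and in CD4 T cells 1.56 (1.49 to 1.63) and 0.06 (-0.20 to 0.32). The interval of Bltp1 lay above 0 in each of these T cell groups, and whether the groups differ was not tested.

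Of the memory and effector genes that the gate did not use, 6 were lower in combod18t. Prf1, the pore-forming perforin, was at 44.4, 60.5, 27.6, 149 and 55.3 CPM, with a day 18 ratio of -1.42 (-1.71 to -1.16). Cxcr6, a chemokine receptor of tissue T cells, was at 70.8, 69.4, 42.4, 180.1 and 70.8 CPM, with -1.34 (-1.59 to -1.10), and Klrc1, the inhibitory receptor NKG2A, at 97.1, 119, 46.7, 199 and 105 CPM, with -0.92 (-1.14 to -0.71). For all 3 genes ctxd18t was the highest library. The Prf1 ratio was -0.62 in members up to 1.5 times the median depth of their library and -0.46 in members with no cell cycle UMI. The calcium-binding genes Anxa2 and S100a4 had ratios of -1.36 (-1.62 to -1.13) and -1.09 (-1.31 to -0.88) and the galectin gene Lgals1 -1.09 (-1.28 to -0.91). Under the depth limit Anxa2 stood at -0.46. Nkg7 was at 518, 649, 396, 645 and 359 CPM, with a ratio of -0.84 (-0.96 to -0.73). Of 26 memory and effector genes, 6 passed downward, beside 1.97% of all genes, and 0 upward, beside 1.1%. The interval lay below 0 for 21, beside 22.3%, and above 0 for 1, beside 21.3%, and the median was -0.59. Without the mixed barcodes 9 of 25 passed downward and the median was -0.71. The same list stood at a median of -0.22 in effector-gated cells, with the interval below 0 for 16 of 29 genes beside 19.3% of all genes and above 0 for 5 beside 22.4%. In CD4 T cells it stood at -1.78, with 24 of 26 below 0 beside 28.9% of all genes and 0 above beside 23.6%. In B cells it stood at -0.38, with 10 of 15 below 0 and 2 above, beside 1120 and 1347 of 8100 genes.

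Of the checkpoint receptors and antigen-response genes 3 passed the threshold at day 18, Cd160, Myc and Ifng, all downward. Pdcd1, the PD-1 receptor, was at 90.5, 141, 47.7, 203 and 142 CPM, with a day 18 ratio of -0.51 (-0.71 to -0.31), and Tnfrsf9, the costimulatory receptor 4-1BB, at 208, 325, 119, 423 and 261 CPM, with -0.70 (-0.84 to -0.56). Neither reached 2-fold. Of 8 checkpoint receptors, 1 passed downward, beside 1.97% of all genes, and the interval lay below 0 for 6, beside 22.3%. It was Cd160, with -1.35 (-1.89 to -0.92), and without the mixed barcodes 2 of 8 passed. Myc, the growth regulator induced by antigen, was at 36.2, 28.3, 31.8, 59.0 and 8.96 CPM, lowest in combod18t, with a ratio of -2.59 (-3.35 to -2.13). Of 14 antigen receptor response genes, Myc and Ifng passed downward, Ifng with -1.05 (-1.57 to -0.61). The interval lay below 0 for 7 and above 0 for 3, beside 22.3% and 21.3% of all genes, and the median was -0.41. The immediate early factor Jun stood at -1.43 (-1.81 to -1.11), and at -2.08 without the mixed barcodes, while its relative Fosb was the other way at 1.00 (0.69 to 1.36), under 2-fold at 0.87 without the mixed barcodes, and the chaperone gene Hsph1 was at -1.75 (-2.02 to -1.51). Of 28 immediate early and heat shock genes, 1 passed upward and 4 downward, beside 1.1% and 1.97% of all genes, and without the mixed barcodes 0 of 27 and 4.

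Most cell cycle and glycolysis genes had intervals below 0 at day 18. Mki67 was at 119.6, 142, 144, 175 and 75.0 CPM, with a day 18 ratio of -1.22 (-1.47 to -0.99) and of -0.81 without the mixed barcodes. The chromatin protein gene Hmgb2 had -1.01 (-1.13 to -0.89), the nucleotide enzyme gene Dut -1.04 (-1.28 to -0.81) and the spindle protein gene Nusap1 -1.17 (-1.81 to -0.66). Without the mixed barcodes Hmgb2 stood at -0.82 and Nusap1 at -0.56. Of 20 cell cycle genes, 5 passed downward, beside 1.97% of all genes, and the interval lay below 0 for 17, beside 22.3%. Without the mixed barcodes 1 of 17 passed downward, and in members with no cell cycle UMI Hmgb2 stood at -0.07 and Dut at -0.23. The cycling share in these libraries was 10.5% in ctxd18t and 3.92% in combod18t. Among 18 glycolysis and growth genes the enzymes Tpi1 (-1.72, interval -2.05 to -1.45) and Eno1 (-1.01, interval -1.28 to -0.76) passed downward, Eno1 at -0.94 without its highest cell no longer so, and the interval lay below 0 for 14, beside the same shares of all genes, with a median of -0.44 (-0.32 in cells with no cell cycle UMI). In members up to 1.5 times the median depth Tpi1 stood at -0.48 and Eno1 at -0.34. In effector-gated cells the cell cycle list had a median of -0.55, with 22 of 25 intervals below 0, beside 19.3% of all genes. Their glycolysis list had -0.36, with 12 of 18 below 0. In CD4 T cells the medians were -1.16 and -0.77, with 19 of 21 and 14 of 18 below 0, beside 28.9%. In B cells they were -0.09 and -0.14.

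Of the type I interferon genes 2 passed the threshold, both downward, beside 1.97% of all genes lower and 1.1% higher. Isg15, a ubiquitin-like interferon product, had a day 18 ratio of -1.06 (-1.35 to -0.80) and Rsad2, the antiviral protein viperin, -2.98 (-3.98 to -2.47). Rsad2 stood at 0.033 in members up to 1.5 times the median depth, and at -2.24 without the mixed barcodes and -2.30 without its highest cell it no longer passed. Of 27 measured genes of the list, the interval lay below 0 for 18 and above 0 for 1, beside 22.3% and 21.3% of all genes, and the median was -0.36. It was -0.69 in members with no cell cycle UMI, -0.15 in effector-gated cells, -0.62 in CD4 T cells and -0.37 in B cells of the same libraries. Among 32 interferon gamma and class I presentation genes, 1 passed downward, beside 1.97% of all genes. It was Irf8 (-1.27, interval -1.57 to -0.99), which at -0.34 under the depth limit no longer did. The interval lay above 0 for 2 and below 0 for 11 of the 32, beside 21.3% and 22.3% of all genes, and the median was -0.13. Of 18 proximal antigen receptor genes, 0 passed, the interval lay above 0 for 3, beside 21.3% of all genes, and below 0 for 8, beside 22.3%, with a median of -0.04 (-0.11 without the mixed barcodes). Genes of the p53 response gave 3 of 12 above 0 and 4 below 0, beside the same shares, with a median of -0.07 (-0.29 without the mixed barcodes).

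Among the lowest ratios at day 18 were neutrophil granule genes whose counts came from 1 cell. Ngp, Camp and Ltf had ratios of -6.80 (-8.05 to -6.35), -6.81 (-8.20 to -6.34) and -6.83 (-14.25 to -6.45). In ctxd18t 1 cell held 99.6% of the Ngp count, 99.9% of the Camp count and 100% of the Ltf count, and 94.8% of the S100a8 count. Without the mixed barcodes the ratio of Ngp was 0.63, of Camp 1.52, of Ltf 0.40 and of S100a8 0.16, on the other side of 0. Lcn2, an iron-binding protein of granulocytes and epithelia with 64.2% of its count in 1 cell, stayed at -5.46 without them and at -5.38 without its highest cell, and was at -0.22 in members up to 1.5 times the median depth. Of the macrophage, NK and neutrophil lists, the interval lay below 0 for 8 of 8, 6 of 6 and 6 of 6 measured genes, beside 22.3% of all genes. Without the mixed barcodes it lay below 0 for 2 of 3, 4 of 4 and 1 of 1, and the NK list had 3 of 4 past the threshold and a median of -1.21. Their part in the other day 18 ratios was measured by leaving those barcodes out, beside which Lef1 stood at 0.56, Il7r at 0.74, Satb1 at 0.70, Prf1 at -1.47, Cxcr6 at -1.45 and Myc at -2.84.

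**Figure D4:**
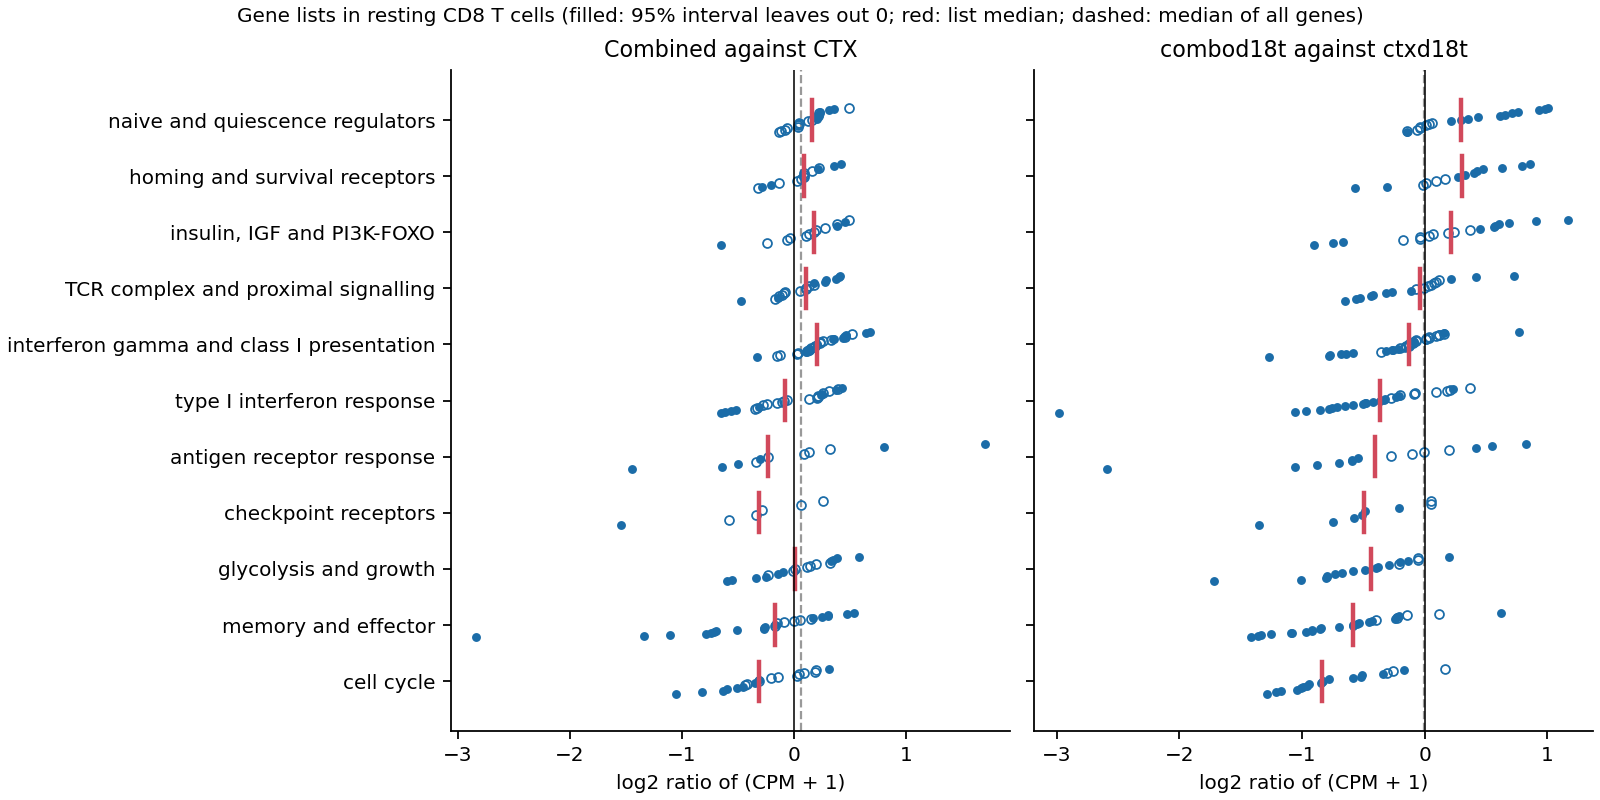
Log2 ratios of CPM of the measured genes of 11 lists in resting CD8 T cells (x axis), for Combined against CTX and for combod18t against ctxd18t, with filled points where the exact 95% interval leaves out 0, a red mark at each list's median and a dashed line at the median of all genes. At day 18 the memory and effector list (median -0.59) and the cell cycle list (median -0.84) lie left of the line, and the naive and homing lists (median 0.30 each) right of it.

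Between Combined and CTX the resting cells differed in few genes. Of 4395 genes, 14 (0.319%) were higher in Combined and 22 (0.501%) lower, with the median of all genes at 0.06. The interval alone lay above 0 for 12.8% and below 0 for 8.26% of genes. Leaving out the mixed barcodes gave 47 genes, 19 of them among the 36, and leaving out each gene's highest cell gave 39, 23 of them among the 36. Thinning each cell to 2000 UMIs left 4 genes past the threshold, and keeping members up to 1.5 times the median depth left 8.

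The resting-state genes were close to level in this pair. The ratio of Lef1 was 0.03 (-0.11 to 0.18), of Bach2 0.21 (0.07 to 0.34), of Il7r 0.09 (-0.06 to 0.25) and of Tcf7 0.12 (-0.09 to 0.33). Satb1 stood at 0.36 (0.26 to 0.46) and Sidt1 at 0.24 (0.10 to 0.39), both above 0 and under 2-fold, and Ccr7 at -0.20 (-0.35 to -0.06). Of 19 naive and quiescence regulators, 0 passed the threshold, the interval lay above 0 for 6, beside 12.8% of all genes, and below 0 for 0, beside 8.26%, and the median was 0.16. Homing and survival receptors had a median of 0.09, with 3 of 14 intervals above 0 and 2 below 0, beside the same shares.

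Some activation and cytotoxic genes were among the 22 lower genes in Combined, and the lists they come from held ratios of both signs. Pdcd1 was at 141 CPM in CTX and 47.7 CPM in Combined, a ratio of -1.54 (-2.06 to -1.10). Tnfrsf9 was at 325 and 119 CPM (-1.44, interval -1.76 to -1.16), Klrc1 at 119 and 46.7 CPM (-1.34, interval -1.86 to -0.88) and Prf1 at 60.5 and 27.6 CPM (-1.11, interval -1.81 to -0.51). Crtam, an adhesion receptor of activated cytotoxic cells, was at 52.1, 116, 38.2, 56.9 and 28.4 CPM, with a ratio of -1.58 (-2.16 to -1.09). CTX was the highest of the 5 libraries for Crtam, but its ratio was 0.16 in members up to 1.5 times the median depth and 0.35 in members with no cell cycle UMI. In the same members the ratio of Tnfrsf9 was 0.73 and -0.16, and in the latter that of Prf1 was -0.40. Of 24 memory and effector genes, 3 passed downward (Ccl4, Klrc1 and Prf1), beside 0.501% of all genes, and 0 upward. The interval lay below 0 for 12, beside 8.26%, and above 0 for 6, beside 12.8%, and the median was -0.17. In members with no cell cycle UMI 1 of 19 passed in each direction, beside 10 higher and 20 lower of 2522 genes. In effector-gated cells the list's median was 0.15, with 17 of 30 intervals above 0 and 8 below, beside 1350 and 728 of 7655 genes. In CD4 T cells it was -0.03, with 9 and 8 of 23, beside 1016 and 572 of 6430. In B cells it was -0.95, with 0 and 12 of 16, beside 1307 and 848 of 6943. Of 11 antigen receptor response genes, Ifng passed upward and Tnfrsf9 downward, beside 0.319% and 0.501% of all genes. The interval lay above 0 for 2 and below 0 for 4, beside 12.8% and 8.26%, and the median was -0.23. That median was 0.15 without the mixed barcodes, with 3 intervals on each side, beside 14.3% above and 9.38% below of all genes. With no cell cycle UMI it was 0.19, with 5 of 9 above 0 and 0 below, beside 12.1% and 7.22%. Of 6 checkpoint receptors Pdcd1 passed, downward, beside 0.501% of all genes. With no cell cycle UMI 1 of 2 measured passed upward and 0 downward, beside 10 and 20 of 2522 genes. The chemokine gene Ccl4 was at 21.4, 377, 52.0, 71.5 and 49.0 CPM, with CTX far above the other libraries and a ratio of -2.84 (-3.31 to -2.44), which was -1.83 without the mixed barcodes. The G protein regulator Rgs16 stood at -1.90 (-2.70 to -1.27), and at 0.57 in members up to 1.5 times the median depth.

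Some of the largest ratios rested on 1 cell or on mixed barcodes, and others did not. Ifng was at 68.0, 167, 546, 43.9 and 20.6 CPM, and 98.4% of its count in Combined came from 1 cell. Without that cell Ifng was at 8.59 CPM in Combined, and with the highest cell of each library left out the ratio went from 1.70 (1.5 to 1.92) to -3.26. Penk, which encodes proenkephalin, was at 45.5, 150.0, 2.12, 105 and 58.8 CPM, with 52.2% of its CTX count in 1 cell and a ratio of -5.60 (-9.20 to -4.28). Without the highest cell of each library Penk stood at -5.14, and without the mixed barcodes at -5.71. Enpp2, the lysophospholipase autotaxin, had -4.25 (-7.85 to -2.89), and -4.40 without the mixed barcodes. Its 2 counts in Combined came from 1 cell, and without the highest cell of each library too few counts were left for it to pass. The myeloid genes Lyz2 (1.20, interval 1.12 to 1.29), Hp (1.84, interval 1.28 to 2.52) and Lpl (2.14, interval 1.63 to 2.76) were higher in Combined with all members, and stood at -0.31, 0.46 and -0.83 without the mixed barcodes. Ccl8, a monocyte chemoattractant, went from -2.04 (-2.70 to -1.51) to -0.49 without them, and Marcksl1, an actin-regulating protein gene, from 1.51 (1.09 to 1.97) to 0.52.

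Most interferon gamma and class I presentation genes had small positive ratios in this pair, 25 of 28 with all members and 15 of 21 without the mixed barcodes. Of 28 measured, 0 passed the threshold, the interval lay above 0 for 11, beside 12.8% of all genes, and below 0 for 1, beside 8.26%, and the median was 0.21 (0.15 over 21 genes without the mixed barcodes). The same list had 20 of 31 intervals above 0 in effector-gated cells, beside 17.6% of all genes, with a median of 0.24. In CD4 T cells 22 of 30 lay above 0, beside 15.8% of all genes, with a median of 0.31. Cell cycle genes had a median of -0.31. Of 19 measured, 1 passed downward, beside 0.501% of all genes: Nusap1, with -1.05 (-1.81 to -0.41). The interval lay above 0 for 1 and below 0 for 8, beside 12.8% and 8.26% of all genes. In members with no cell cycle UMI the median was 0.20 over 5 measured genes. Glycolysis genes had a median of 0.01 (-0.23 without the mixed barcodes). The type I interferon list had 4 of 24 intervals above 0 and 5 below 0, beside the same shares, and a median of -0.08 (0.15 without the mixed barcodes).

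Both pairs were also compared gene by gene. Over the 4302 genes measured in both, Pearson's r between their log2 ratios was 0.26 and Spearman's rho 0.25. Both are descriptions across genes, which share libraries and depth and are not independent. Their signs, and each shared or opposite direction given next, hold for the day 18 labels as deposited and would turn if those labels were exchanged. Of these genes 25 passed the threshold in Combined against CTX and 105 at day 18, and 4 passed it in both. Prf1 and Nusap1 were lower in both. Without the highest cell of each library neither passed in Combined against CTX. Prf1 then stood at -0.97, under 2-fold, while Nusap1 stood at -1.39 (-2.35 to -0.64) with too few counts left to pass. Ifng and Clec4e had opposite signs. Clec4e, a myeloid lectin receptor named here after its values were seen, had a log2 ratio of 1.13 (0.57 to 1.74) in Combined against CTX and -1.47 (-2.03 to -1.03) at day 18, and 0.23 and 0.074 without the mixed barcodes. Ranked by the smaller of both ratios, an order that needs the same sign in both and so the labels as deposited, Setd1b, a histone H3K4 methyltransferase gene, was among the highest, with 0.72 (0.19 to 1.28) in Combined against CTX and 0.87 (0.44 to 1.37) at day 18. The autophagy kinase gene Ulk2 had 0.74 (0.26 to 1.24) and 0.76 (0.48 to 1.07), the ganglioside synthase gene St8sia1 0.68 (0.29 to 1.08) and 0.98 (0.76 to 1.22). Unkl had 0.88 (0.32 to 1.49) and 0.81 (0.41 to 1.25), and Gm20275 0.69 (0.27 to 1.13) and 0.88 (0.65 to 1.13). At the other end were Prf1, Klrc1 and Nusap1, already given, Crtam with -0.98 (-1.42 to -0.59) at day 18, and the recombination gene Rad51b with -0.94 (-1.72 to -0.27) and -1.13 (-1.62 to -0.71).

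T cell receptor beta segments were read from gene counts, not from assembled receptors. Exactly 1 Trbv segment was seen in 74 resting cells of MRX, 70 of CTX, 32 of Combined, 100 of ctxd18t and 167 of combod18t, that is in 27.3%, 29.0%, 27.1%, 55.2% and 46.8% of them, and in at most 0.873% of B cells. In the resting cells the most frequent segment was Trbv2 in MRX at 18.9% (exact interval 10.7% to 29.7%), and Trbv1 in ctxd18t at 21.0% (13.5% to 30.3%) and in combod18t at 15.6% (10.4% to 22.0%). In CTX Trbv13-1 and Trbv13-2 were level at 12.9%, and in Combined Trbv12-2 and Trbv19 at 15.6%. Effector-gated cells were more uneven in these libraries: Trbv2 was 31.9% (26.1% to 38.3%) in MRX, and Trbv1 38.9% (32.8% to 45.4%) in ctxd18t and 37.0% (29.6% to 44.8%) in combod18t. The share of pairs of cells with the same segment was 8.37%, 7.62%, 7.26%, 9.58% and 9.24% in resting cells and 16.4%, 9.24%, 9.59%, 20.6% and 18.9% in effector-gated cells, lower in the resting cells of each library.

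**Figure D5:**
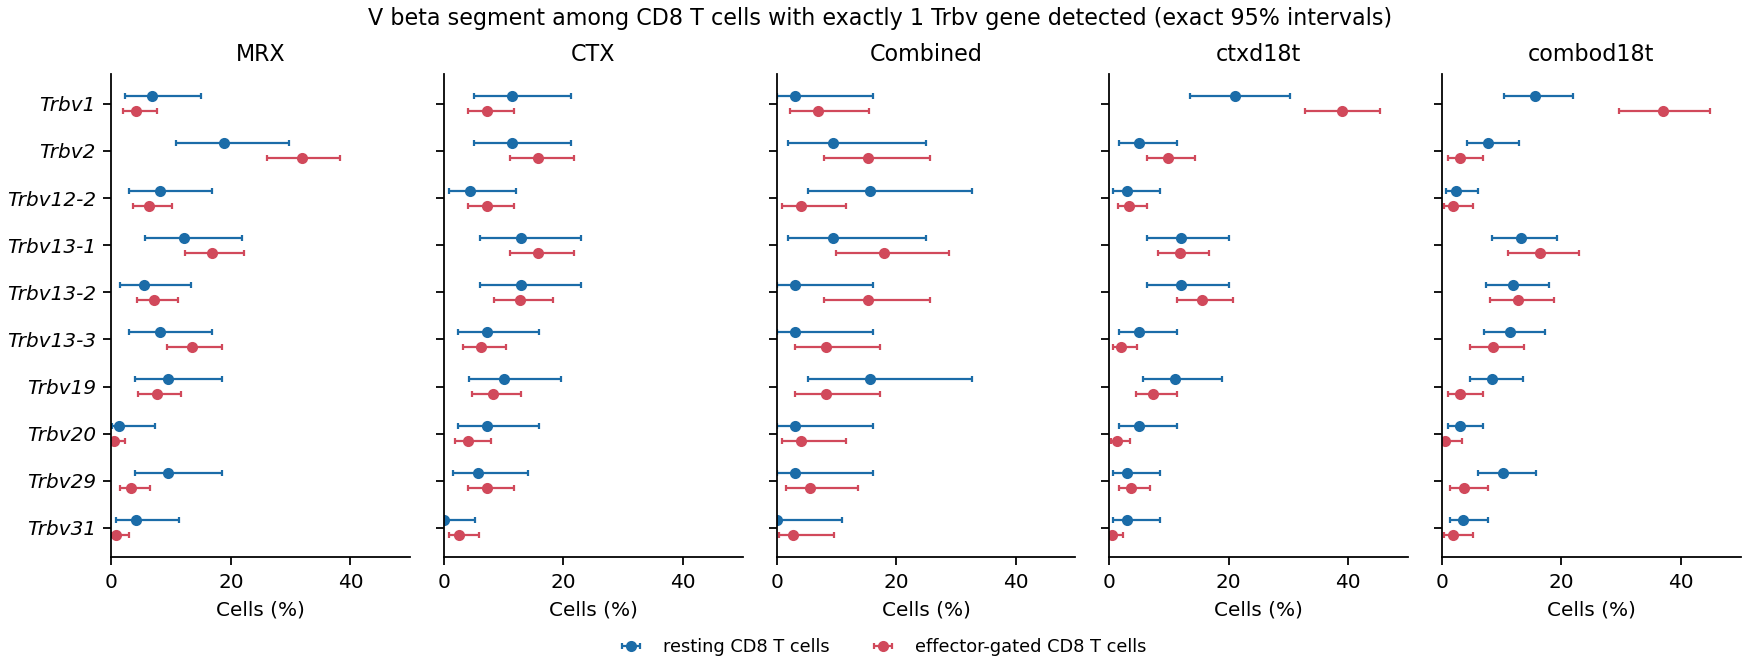
Share of cells by T cell receptor beta variable segment (percent of cells with exactly 1 segment seen) for 10 segments in the 5 libraries, resting beside effector-gated CD8 T cells. Trbv1 reaches 38.9% of effector-gated cells in ctxd18t and 37.0% in combod18t, against 21.0% and 15.6% of resting cells.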

How the data were processed

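CD45+ cells of mouse mammary tumours were profiled in 6 samples, 1 per group, by droplet 3' sequencing with on-chip multiplexing, per the labels' protocols. The values are whole UMI counts per gene and cell (33696 features) as the authors deposited them. Cell Ranger 9.0.1 is named in the labels' protocol, and Seurat 5.2.0 and the build GRCm39 are named in the submitters' processing notes without a role. No genome of that build was used, so no coordinates or sequences are given. Whether doublets had been removed was not given in the sources used here.

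Cells with at least 200 genes and at most 15% mitochondrial UMIs were kept, and the gate was applied to raw counts. Scrublet (scanpy 1.11.5, expected rate 0.06) called at most 0.112% of cells, too few to be used, so doublets stayed in, with the removal of the highest 5% of scores as an alternative. Counts of the gated cells were summed per library and scaled to CPM, and ratios of CPM plus 1 were given with exact conditional binomial intervals. Shares have Clopper-Pearson intervals and their differences Newcombe intervals, all at 95%. Genes of the gate, mitochondrial, ribosomal protein and receptor segment genes and duplicated symbols were left out of the counts of genes. With 1 library a group, depth limits only the counting error, and a count of 0 allows up to 3 counts. Python 3.11.15, numpy 2.4.6, scipy 1.17.1, pandas 2.3.3 and matplotlib 3.10.9 were used, and the calculations were tested on simulated data.

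The members, the markers and the gene lists were chosen with earlier results of these data known. Named genes were the markers, up to 4 genes per list by summed count or by passing the threshold, the 5 highest and 5 lowest per pair by the interval bound nearest to 0, the 5 highest and lowest over both pairs, and the 8 highest and lowest by median ratio against effector-gated and CD4 cells. Tcf7, Klf2, S1pr1, Cd44, Il2rb, Foxp3, Rag1 and Rag2 were added as textbook genes after their values were seen. Alternatives varied the gate, the filters, thinning to 2000 UMIs, scaling, the pseudocount and the count minimum, and 6 choices added after seeing the data left out cells or barcodes.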

Additional observations from a re-analysis of the deposited data

Results flagged for a closer look

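Among the genes named by rule with at least 100 counts in each pair, 3 were past 2-fold in Combined against CTX and had the opposite sign in combod18t against ctxd18t, with an interval that leaves out 0 in both. Clec4e, which the rule does not name, met the same limits, at 1.13 and -1.47. Both pairs have 1 library a group and share no library, and the difference between them was not tested. The opposite signs hold for the day 18 labels as deposited, and the signs would be the same if those labels were exchanged. Ifng, the interferon gamma gene, stood at 1.70 in Combined against CTX and at -1.05 at day 18, with 98.4% of its count in Combined held by 1 cell. Lyz2, the lysozyme gene of myeloid cells, stood at 1.20 and at -0.17, and without the mixed barcodes at -0.31 and 0.56. Marcksl1, which encodes an actin-regulating protein, stood at 1.51 and at -0.68, and without the mixed barcodes at 0.52 and -0.32.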

How the results depend on the processing

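No paired analysis was possible because each group has 1 library, and for the same reason no replicate could be left out. Thinning to 2000 UMIs before the gate moved share differences beyond their interval: Combined minus CTX to -7.00 points of gated CD8 T cells, and combod18t minus ctxd18t to 0.417 points of kept cells and 15.9 points of gated CD8 T cells. CTX minus MRX moved to -1.08 and 15.3 points and Combined minus MRX to -1.55 points of kept cells. For Combined against CTX, 36 genes passed the threshold, against 63 with no cytotoxic UMI allowed, 4 in members thinned to 2000 UMIs, 326 with at least 20 counts and 8 in members up to 1.5 times the median depth. At day 18, 196 genes passed, against 54 after thinning, 96 with a pseudocount of 10 CPM, 621 with at least 20 counts and 95 in members up to 1.5 times the median depth. The day 18 division into higher and lower genes was 70 and 126, and became 80 and 83 without each gene's highest cell, 34 and 20 after thinning and 51 and 44 under the depth limit. Median-of-ratios scaling shifted the median of all genes by -0.056 and 0.013. Fewer cells or counts enter the thinned and depth-limited values, and the cause of the other moves was not tested.

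Over 247 named gene ratios, 27 of 3203 recomputed values changed the sign of a ratio that was at least 2-fold with all members, and 243 that of a smaller one. Of the smaller ones, without the mixed barcodes Cd74 went from -0.23 to 0.73 and H2-Aa from -0.24 to 0.55 in Combined against CTX, and Lyz2 from -0.17 to 0.56 at day 18. Of the former, in Combined against CTX there were Crtam (0.16 under the depth limit and 0.35 with no cell cycle UMI), Ifng (-3.60 with no C1q UMI, -3.26 without the highest cell, -1.41 under the depth limit) and Igkc (-0.93 with no cytotoxic UMI, -0.47 under the depth limit). Rgs16 (0.57) and Tnfrsf9 (0.73) changed under the depth limit, and Lpl (-0.83) and Lyz2 (-0.31) without the mixed barcodes. At day 18, with no cytotoxic UMI, without mixed barcodes, under the depth limit and with no cell cycle UMI, Camp stood at 1.57, 1.52, 1.61 and 2.11, Ltf at 0.45, 0.40, 0.49 and 0.50, and Ngp at 0.80, 0.63, 0.59 and 0.67. Without the highest cell Camp stood at 1.28 and Ngp at 0.57, and Ltf had no count left. Rsad2 stood at 0.033 under the depth limit and S100a8 at 0.16 without mixed barcodes.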

Other observations

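Xcl1, a chemokine gene that attracts cross-presenting dendritic cells, was in resting cells at 903 CPM in MRX, 1175 CPM in CTX and 830 CPM in Combined, and at 272 CPM in ctxd18t and 186 CPM in combod18t. It had a UMI in 20.3%, 25.7%, 13.6%, 23.8% and 10.9% of the resting cells in that order. In Combined 1 cell held 53.3% of the Xcl1 count, and the level without that cell was 393 CPM. In effector-gated cells Xcl1 was at 292, 412, 369, 217 and 188 CPM.

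Bcl2, the survival factor that IL-7 signals maintain, was at 649, 299, 411, 880 and 983 CPM in the resting cells and at 361, 145, 150 and 307 CPM in effector-gated cells of the first 4 libraries and 476 CPM in those of combod18t. It was higher in the resting cells of each library. Its list of 19 IL-7, IL-4 and STAT targets had a median log2 ratio to effector-gated cells of -0.10. In that list 0 genes were at least 2-fold higher in all 5 libraries, beside 0.789% of all genes. Ikzf2, the Ikaros family factor Helios, had a UMI in 18.5%, 24.9%, 24.6%, 30.9% and 18.8% of resting cells. Of the IL-7, IL-4 and STAT targets, the interval lay above 0 for 5 of 15 measured genes and below 0 for 0 in Combined against CTX, beside 12.8% and 8.26% of all genes, with a median of 0.09. At day 18 it lay above 0 for 6 of 17 and below 0 for 5, beside 21.3% and 22.3% of all genes, with a median of 0.03.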
